A study of Mus musculus with 12 samples.

Results

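The genes described here are 7 transport genes of the colonic surface: the sodium-proton exchangers Slc9a2 and Slc9a3, the sodium-bicarbonate cotransporter Slc4a4, the sodium-coupled butyrate transporter Slc5a8, the carbonic anhydrase Car1, the water channel Aqp4 and the potassium channel Kcnq1. They were taken as a list, and all probes whose identifier holds the NCBI gene number of 1 of them (226999, 105243, 54403, 216225, 12346, 11829 and 16535, in the order above) were read in the deposited value table. This gave 10 of 46628 probes and 7 of 8106 named genes. Of the 10 probes, 8 lay above background on at least 2 arrays and were kept, at least 1 for each gene. The names are an inference from the identifiers, and they are less firm for the brighter Slc9a2 probe and for Slc5a8, Aqp4 and Kcnq1, whose numbers follow 2 leading zeros.

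RNA was profiled on 12 Illumina bead arrays, with 2 arrays in each of 6 groups of gut tissue. All mice were Apcmin mice, which form intestinal adenomas because they carry a mutated copy of the tumour suppressor Apc. Tumour and normal tissue came from Notch-activated mice (Vil-Cre;RosaN1+/RN1), from Notch-inactivated mice (Vil-Cre;Mib1f/f) and from wild type mice, whose genotype label is wt. Vil-Cre is a Cre recombinase under the Villin promoter, which is active in the gut epithelium, so both alterations are placed in epithelial cells. In the Notch-activated mice Cre switches on a Notch1 allele at the Rosa locus, and in the Notch-inactivated mice it deletes Mib1, a ubiquitin ligase that Notch ligands need to signal. The labels give neither the age of the mice nor the segment of gut, and nothing in them tells whether 2 arrays of a group stand for different animals. A p-value here measures only the spread between arrays, which may be technical.

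The colon recovers salt and water from its contents. Surface cells take up sodium through exchangers that trade it for protons, secrete bicarbonate in return for chloride, and burn butyrate, a short-chain fatty acid made by gut bacteria, as their main fuel. Carbonic anhydrase supplies the protons and bicarbonate for these exchanges, basolateral potassium channels keep the membrane potential on which uptake and secretion depend, and water follows the salt. Notch signalling in the gut keeps progenitors dividing and steers their daughters away from secretory fates towards absorptive ones. Loss of Apc keeps the Wnt pathway active.

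Promoter sequences were available for 3 of the 7 genes and are shown because Slc9a3 changed in the opposite direction to Slc4a4 and Slc5a8 in Notch-activated tumours relative to wild type tumours, as described further on. Each line gives the 250 bases before a RefSeq start site in the build GRCm38.p6, all on the + strand and read 5′ to 3′: Slc9a3 at chr13:74121163-74121412, Slc4a4 before its upstream start at chr5:88887010-88887259 and before its downstream start at chr5:89027716-89027965, and Slc5a8 at chr10:88885742-88885991. Capitals mark matches, on either strand, to short motifs of the Notch partner RBPJ (TGGGAA), the Wnt effector TCF7L2 (CTTTGA), the intestinal factor CDX2 (TTTATG) and HNF4A (CAAAGT).
Slc9a3 promoter: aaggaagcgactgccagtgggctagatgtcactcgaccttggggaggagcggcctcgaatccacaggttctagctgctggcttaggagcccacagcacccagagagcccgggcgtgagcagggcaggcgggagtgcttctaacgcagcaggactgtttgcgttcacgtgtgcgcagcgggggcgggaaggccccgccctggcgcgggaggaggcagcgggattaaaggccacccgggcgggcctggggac
Slc4a4 upstream promoter: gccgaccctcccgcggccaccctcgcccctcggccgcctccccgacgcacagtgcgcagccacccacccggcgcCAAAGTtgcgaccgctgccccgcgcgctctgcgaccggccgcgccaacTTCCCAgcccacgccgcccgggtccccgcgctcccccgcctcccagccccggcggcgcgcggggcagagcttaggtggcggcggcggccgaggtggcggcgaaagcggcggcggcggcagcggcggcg
Slc4a4 downstream promoter: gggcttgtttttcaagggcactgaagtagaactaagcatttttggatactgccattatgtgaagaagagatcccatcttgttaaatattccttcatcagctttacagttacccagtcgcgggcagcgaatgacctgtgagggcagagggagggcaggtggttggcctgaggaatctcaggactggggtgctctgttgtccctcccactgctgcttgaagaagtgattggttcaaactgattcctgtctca
Slc5a8 promoter: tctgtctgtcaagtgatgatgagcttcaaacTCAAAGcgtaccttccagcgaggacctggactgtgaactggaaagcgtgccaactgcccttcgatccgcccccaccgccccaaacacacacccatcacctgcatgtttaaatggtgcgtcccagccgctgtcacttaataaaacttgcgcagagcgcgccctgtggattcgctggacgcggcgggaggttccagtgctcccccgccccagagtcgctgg
The Slc9a3 promoter held no match and had a GC content of 67.6%, against a median of 52.4% over 32851 promoters. The upstream Slc4a4 promoter, with 82% GC, held an HNF4A match (CAAAGT) 176 to 171 bases before the start and an RBPJ match on the other strand (TTCCCA) 128 to 123 bases before it. The downstream Slc4a4 promoter, with 48.8% GC, held none. The Slc5a8 promoter, with 58.8% GC, held a TCF7L2 match on the other strand (TCAAAG) 219 to 214 bases before the start. The 4 motifs occur in 21.6% (RBPJ), 13.8% (TCF7L2), 10.8% (CDX2) and 12.6% (HNF4A) of all these promoters, so a match describes letters and no bound site. CTTTGA and CAAAGT share letters on opposite strands, and the arrays do not show which Slc4a4 start was in use.

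Facts of the whole series that touch these genes are as follows. Values are log2 signals, and the background limit of an array, the 95th percentile of its 46 probes for foreign sequences, lay between 5.58 and 5.82. The reporter eGFP, which such Rosa alleles carry, read 9.50 or more on the 4 Notch-activated arrays and 5.48 or less on the other 8. Mib1 averaged 6.12 ± 0.07 in Notch-inactivated and 6.40 ± 0.05 in wild type normal tissue, and 6.23 ± 0.06 and 6.75 ± 0.03 in the corresponding tumours (SD, n = 2 each), differences that were not called (limma, adjusted p = 0.180 and 0.153). The position of that probe relative to the floxed exons is not given, so it checks no label. The summed linear signal of 6 epithelial markers ranged from 21482 to 29744 over all 12 arrays, with Krt20 at background in 4 of the 6 groups. Among 9 kept colon markers, Sycn (13.41 and 13.11) and Selenbp1 (12.56 and 12.72) were bright in wild type normal tissue.

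The 2 arrays of Notch-inactivated normal tissue stood apart from each other in Paneth cell transcripts. Array 1 had a summed signal of 5971 over 7 kept small intestinal markers and array 2 had 2160, a sum that rests mainly on the defensins Defa5 (11.76 and 10.33) and Defa21 (11.05 and 8.96). Among the 7 genes, these arrays differed most for Slc9a3, so results of the 7 genes that rest on them are given with and without them where that changes a call.

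Slc9a2 (NHE2) and Slc9a3 (NHE3) are apical exchangers that bring sodium into the cell in return for a proton. Slc9a2 read 7.51 and 7.23 in Notch-activated tumours, against 8.47 and 8.87 in Notch-activated normal tissue. In the Notch-inactivated mice it read 6.51 and 6.28 in tumours, against 9.94 and 9.67 in normal tissue. The wild type values were 6.33 and 6.70 in tumours, against 10.10 and 10.53 in normal tissue. Every tumour array lay below every normal array, and the Notch-activated mice had both the highest tumour values and the lowest normal values. In the order of the means, wild type normal tissue came first (10.31 ± 0.30), then Notch-inactivated normal tissue (9.80 ± 0.19), Notch-activated normal tissue (8.67 ± 0.29) and Notch-activated tumours (7.37 ± 0.20), with wild type (6.52 ± 0.26) and Notch-inactivated tumours (6.40 ± 0.16), whose arrays overlapped, at the end (SD, n = 2 each).

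A second, dimmer Slc9a2 probe read 5.62 and 5.66 in Notch-activated tumours, against 6.17 and 6.04 in Notch-activated normal tissue. It read 5.53 and 5.46 in Notch-inactivated tumours, against 6.71 and 6.79 in normal tissue, and 5.41 and 5.42 in wild type tumours, against 6.92 and 7.26 in normal tissue. It was at background on both arrays of every tumour group, so it gives no order among tumours, and among normal tissues it had the same order as the brighter probe.

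The only Slc9a3 probe gave a different picture. It read 6.66 and 6.26 in Notch-activated tumours, against 8.55 and 9.49 in Notch-activated normal tissue. Notch-inactivated tumours had 10.83 and 11.21, against 10.98 and 9.22 in normal tissue. Wild type tumours had 11.80 and 11.15, against 10.40 and 10.43 in normal tissue. The Notch-activated tumours were far below all other arrays. The other tumours were the brightest groups, at 11.47 ± 0.46 in wild type and 11.02 ± 0.27 in Notch-inactivated mice, and their arrays overlapped. Notch-inactivated normal tissue (10.10 ± 1.24) had the widest spread of any group and overlapped its neighbours in the order, wild type (10.41 ± 0.02) and Notch-activated normal tissue (9.02 ± 0.66). It also overlapped the Notch-inactivated tumours, since 10.98 lies between their 10.83 and 11.21.

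Slc4a4 (NBCe1) carries sodium and bicarbonate into the cell across the basolateral membrane, and Car1 is a cytosolic enzyme, abundant in colon, that interconverts carbon dioxide and bicarbonate. Slc4a4 read 7.36 and 7.73 in Notch-activated tumours, against 8.06 and 8.41 in normal tissue of these mice. In Notch-inactivated mice it read 5.83 and 5.70 in tumours, against 6.75 and 6.15 in normal tissue. Wild type mice had 5.75 and 5.63 in tumours, against 8.22 and 8.26 in normal tissue. The wild type and Notch-inactivated tumours were barely above the background limit, and their arrays overlapped, so the fold between them and a brighter group may be understated. Wild type and Notch-activated normal tissue had the same mean, 8.24, with SDs of 0.03 and 0.25, followed by Notch-activated tumours at 7.55 ± 0.26 and Notch-inactivated normal tissue at 6.45 ± 0.42. Another Slc4a4 probe lay below the limit on all 12 arrays.

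Car1 read 10.51 and 9.87 in Notch-activated tumours, against 10.55 and 11.20 in Notch-activated normal tissue. Its signals were 9.87 and 10.48 in Notch-inactivated tumours, against 13.87 and 13.87 in normal tissue, and 9.80 and 10.95 in wild type tumours, against 12.73 and 13.47 in normal tissue. The 3 tumour groups overlapped one another, with means from 10.18 to 10.38, and Notch-activated normal tissue (10.87 ± 0.46) overlapped the wild type tumours. Only the Notch-inactivated and wild type normal arrays stood clearly above the rest, and the Notch-inactivated ones lay close to the highest signal of any probe, 14.25.

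Slc5a8 (SMCT1) is the apical transporter that takes up butyrate together with sodium. It read 10.92 and 10.41 in Notch-activated tumours, against 11.12 and 11.41 in their normal tissue. Notch-inactivated tumours had 6.28 and 6.12, against 10.72 and 9.97 in normal tissue. Wild type tumours had 7.69 and 8.47, against 12.03 and 12.19 in normal tissue. The Notch-activated tumours overlapped Notch-inactivated normal tissue, while the wild type and Notch-inactivated tumours were each separate from every other group. Another Slc5a8 probe was below the limit on all 12 arrays. The number of this silent probe follows 1 leading zero, the class with the firmer names. That of the bright probe, on which the Slc5a8 results rest, follows 2.

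Aqp4 is a water channel of basolateral membranes. It read 11.65 and 10.31 in Notch-activated tumours, against 11.49 and 11.41 in normal tissue. Notch-inactivated tumours read 7.79 and 6.83, against 11.96 and 11.16 in normal tissue, and wild type tumours 7.88 and 9.18, against 11.91 and 11.61 in normal tissue. The means of the 3 normal groups lay between 11.45 and 11.76, with Notch-inactivated arrays overlapping those of both other genotypes, and the Notch-activated tumours overlapped Notch-activated normal tissue. The SDs of the tumour groups, 0.95, 0.68 and 0.92 in Notch-activated, Notch-inactivated and wild type mice, were the widest of the gene.

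Kcnq1 forms the pore of a basolateral potassium channel whose current supports chloride secretion. It read 9.92 and 10.57 in Notch-activated tumours, against 10.39 and 10.49 in normal tissue. Notch-inactivated tumours had 9.57 and 9.07, against 8.41 and 7.85 in normal tissue. Wild type tumours had 9.92 and 9.72, against 10.24 and 10.04 in normal tissue. Notch-inactivated normal tissue was the dimmest group, below all other arrays, and Notch-activated tumours overlapped both Notch-activated and wild type normal tissue.

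**Figure D1:**
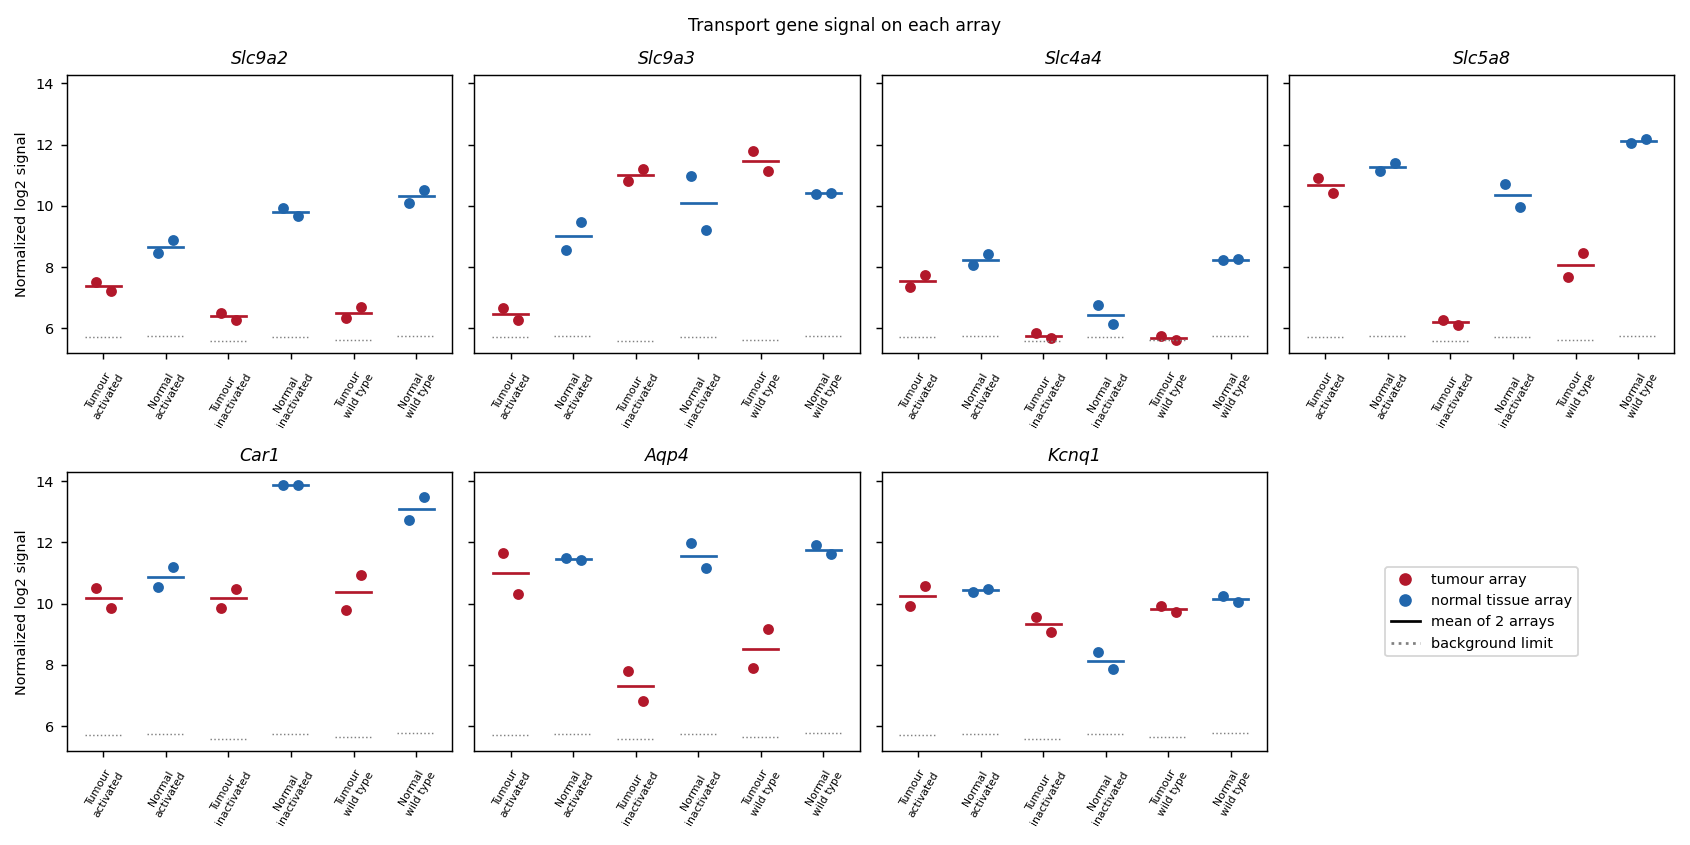
Normalized log2 signal (vertical axis) of each gene on each array, in the 6 groups (horizontal axis), with tumour arrays as red points, normal tissue arrays as blue points, horizontal bars for the mean of 2 arrays and dotted lines for the background limit. Slc9a2, Slc5a8, Car1 and Aqp4 were low in wild type tumours against normal tissue, whereas Slc9a3 was low in Notch-activated tumours, at 6.66 and 6.26.

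The first comparison asks which of these genes differed between tumours and normal tissue of the same genotype. In wild type mice Slc5a8 fell 16.3-fold, Slc9a2 13.9-fold, Aqp4 9.37-fold, Car1 6.61-fold and Slc4a4 5.86-fold in tumours. Slc9a3 and Kcnq1 were not called. Thus 5 of the 7 genes fell and 0 rose, against a background of 49.4% of all 22879 features called in either direction and 25.7% called lower. The median log2 difference of the 7 genes was -2.73, against -0.03 over all features. In bulk tissue fewer cells of a type and less RNA per cell cannot be told apart.

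The log2 differences in wild type mice, tumour minus normal, were -4.03 (SE 0.29) for Slc5a8, -3.80 (SE 0.20) for Slc9a2, -3.23 (SE 0.52) for Aqp4, -2.73 (SE 0.40) for Car1 and -2.55 (SE 0.20) for Slc4a4. Their limma adjusted p-values over all features were 5.29e-06, 9.12e-07, 6.59e-04, 3.96e-04 and 7.69e-06, in the same order. Slc9a3 was 1.06 higher (SE 0.50, adjusted p = 0.101), a difference that was called when only the 4 wild type arrays were fitted (adjusted p = 0.0126) or when either array of Notch-inactivated normal tissue was left out (adjusted p = 0.0197 for each). The Aqp4 difference was -2.58 without array 1 and -3.88 without array 2 of the wild type tumours. Kcnq1 differed by -0.32 (SE 0.25, adjusted p = 0.302).

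Markers of other cells moved with this comparison. The summed linear signal of 6 fibroblast markers was 8357 to 10121 on wild type tumour arrays and 351 to 487 on wild type normal arrays, where Col1a1, Col1a2, Col3a1 and Mgp were at background. For 6 myeloid markers the sums were 2898 to 3984 in tumours and 502 to 636 in normal tissue, and for 5 endothelial markers 812 to 1030 and 221 to 224. All 5 endothelial markers and the myeloid markers Csf1r, Cd68, C1qa and C1qb were at background in wild type normal tissue. The 6 epithelial markers summed to 22705 to 25180 in wild type tumours and 21482 to 22162 in normal tissue, with 2 of 6 called higher, 1 called lower and a median log2 difference of -0.14. The 9 colon markers summed to 11628 to 12027 in tumours and 38424 to 38879 in normal tissue, with 8 called lower and 0 higher. In normal tissue that sum rests mainly on Sprr2a1 (13.98 and 14.03), Sycn and Selenbp1. Hoxb13 read 11.41 and 11.26 in tumours, against 11.98 and 12.08 in normal tissue. The 7 small intestinal markers summed to 5005 to 5727 in tumours and 576 to 578 in normal tissue, with 3 called higher and 3 lower. Among them Defa5 read 11.67 and 11.81 in tumours, against 5.39 and 5.50 in normal tissue. The part of these markers in the result was not tested.

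In Notch-inactivated mice 5 genes fell in tumours and 1 rose, beside 50.6% of features called, 25% higher and 25.6% lower. The log2 differences were -4.25 for Aqp4 (19.0-fold, limma adjusted p = 1.29e-04), -4.14 for Slc5a8 (17.7-fold, adjusted p = 5.44e-06), -3.69 for Car1 (12.9-fold, adjusted p = 6.68e-05) and -3.41 for Slc9a2 (10.6-fold, adjusted p = 2.08e-06), with the same SEs as in wild type mice. The channel gene Kcnq1 was the one that rose, by 1.19 (SE 0.25, 2.28-fold, adjusted p = 0.00286). Slc4a4 had a difference of -0.68 (SE 0.20, adjusted p = 0.0163) and lost its call without array 1 of the normal tissue (-0.38, adjusted p = 0.126) and without array 2 of the tumours (-0.61, adjusted p = 0.0848). Slc9a3 was 0.92 higher (SE 0.50, adjusted p = 0.146), and without Notch-inactivated normal array 1 it was called at 1.80 (adjusted p = 0.00563), while without array 2 it was not called, at 0.045. Fibroblast markers summed to 7728 to 11313 in these tumours, against 353 to 582 in normal tissue, and myeloid markers to 4299 to 4924, against 489 to 538. Endothelial markers summed to 750 to 838 in tumours and 206 to 231 in normal tissue. In that normal tissue 3 of the 6 fibroblast, 2 of the 6 myeloid and 4 of the 5 endothelial markers were at background. The epithelial sums were 22860 to 24421 in tumours and 25182 to 25769 in normal tissue, with 1 marker called higher and 2 lower, and the colon sums 12460 to 14786 and 22922 to 27134, with 5 of 9 called lower. Small intestinal markers summed to 4232 to 6561 in tumours and 2160 to 5971 in normal tissue, with 1 called higher and 2 lower. The part of these markers was not tested.

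Slc9a2, Slc5a8, Car1 and Aqp4 differed less between tumours and normal tissue in Notch-activated mice than in the other genotypes, whereas Slc9a3 differed more. In Notch-activated mice 3 genes were lower in tumours and 0 higher, beside 25% of features called, 12.2% higher and 12.8% lower. The 3 that fell were Slc9a3 at -2.56 (5.90-fold, limma adjusted p = 0.00588), Slc9a2 at -1.30 (2.46-fold, adjusted p = 0.00220) and Slc4a4 at -0.69 (1.61-fold, adjusted p = 0.0304). Slc9a3 was not called when normal array 2 of these mice was left out (-2.09, adjusted p = 0.0563). The Slc4a4 call ended without that array (adjusted p = 0.187), without Notch-activated tumour array 1 (adjusted p = 0.178) and with cyclic loess normalization (-0.60, adjusted p = 0.0563). Slc5a8, Car1, Aqp4 and Kcnq1 were not called, at -0.60, -0.68, -0.47 and -0.20 with adjusted p of 0.158, 0.242, 0.545 and 0.591. The dimmer Slc9a2 probe, fitted as a feature of its own, had differences of -0.47, -1.26 and -1.68 in Notch-activated, Notch-inactivated and wild type mice, with its tumour signal at background in each. Fibroblast markers summed to 4357 to 5213 in Notch-activated tumours and 351 to 384 in their normal tissue, myeloid markers to 1435 to 2409 and 570 to 680, and endothelial markers to 718 to 915 and 224 to 240. In that normal tissue 4 of the 6 fibroblast, 2 of the 6 myeloid and 4 of the 5 endothelial markers were at background. Colon markers summed to 16527 to 19513 in tumours and 25150 to 25407 in normal tissue, with 2 of 9 called lower, and epithelial markers to 25613 to 29744 and 26335 to 27438, with 0 of 6 called. Small intestinal markers summed to 476 to 560 in tumours and 508 to 510 in normal tissue, with 1 called higher and 1 lower. Their part in the differences was not tested.

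**Figure D2:**
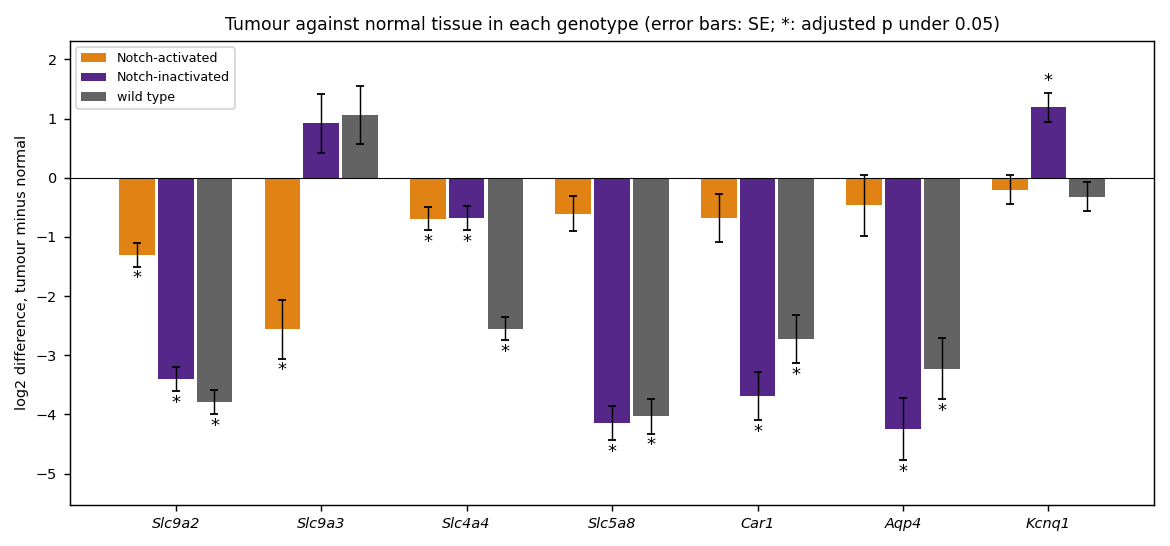
Log2 difference, tumour minus normal tissue (vertical axis), of each gene in Notch-activated, Notch-inactivated and wild type mice (bars), with SE as error bars and a star where the limma adjusted p was under 0.05. Slc5a8 differed by -0.60 in Notch-activated mice, beside -4.14 in Notch-inactivated and -4.03 in wild type mice.

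The second comparison sets Notch-activated against wild type mice within each tissue. In tumours Slc5a8 rose 6.0-fold, Aqp4 5.47-fold, Slc4a4 3.63-fold and Slc9a2 1.81-fold, while Slc9a3 fell 32.4-fold. Car1 and Kcnq1 were not called. These are 4 genes higher and 1 lower of 7, beside 10.9% of features called higher and 10.4% called lower (21.2% in all). In normal tissue 0 genes rose and 2 fell, Car1 4.69-fold and Slc9a2 3.12-fold, beside 8.04% of features called, 3.7% higher and 4.34% lower.

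In tumours the log2 difference of Slc9a3, Notch-activated minus wild type, was -5.02 (SE 0.50, limma adjusted p = 1.22e-04), and the arrays of the groups did not overlap. Slc5a8 rose by 2.58 (SE 0.29, adjusted p = 2.65e-04) and Slc4a4 by 1.86 (SE 0.20, adjusted p = 1.83e-04). Aqp4 rose by 2.45 (SE 0.52, adjusted p = 0.00785) and Slc9a2 by 0.86 (SE 0.20, adjusted p = 0.0134). Leaving out wild type tumour array 1 ended the calls of Aqp4 (1.80, adjusted p = 0.0656) and Slc9a2 (0.67, adjusted p = 0.107), and so did leaving out Notch-activated tumour array 1 (1.78, adjusted p = 0.0662, and 0.72, adjusted p = 0.10). With only the tumour arrays of these genotypes fitted, Aqp4 was not called either (adjusted p = 0.0522). Without array 2 of the Notch-activated tumours the Aqp4 difference was 3.12. The dimmer Slc9a2 probe, at background in both groups, differed by 0.22 (adjusted p = 0.224).

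Car1 (-0.19, adjusted p = 0.825) and Kcnq1 (0.42, adjusted p = 0.285) did not pass the test in tumours. Fibroblast markers summed to 4357 to 5213 in Notch-activated tumours and 8357 to 10121 in wild type tumours, and myeloid markers to 1435 to 2409 and 2898 to 3984. Epithelial markers summed to 25613 to 29744 in Notch-activated tumours and 22705 to 25180 in wild type tumours. The small intestinal markers summed to 476 to 560 and 5005 to 5727, with Defa5 and Defa21 at background in Notch-activated tumours. Of the colon markers 3 were called higher and 0 lower in Notch-activated tumours. The part of these markers in the differences was not tested.

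In normal tissue Slc9a2 fell by 1.64 (SE 0.20, limma adjusted p = 9.60e-04) in Notch-activated mice, and its dimmer probe had a difference of -0.99 (adjusted p = 6.87e-04). Car1 had a difference of -2.23 (SE 0.40, adjusted p = 0.00818), and the call was lost without array 2 of wild type (-1.86, adjusted p = 0.0659) or array 1 of Notch-activated normal tissue (-1.90, adjusted p = 0.0754). Slc9a3 (-1.39, adjusted p = 0.134) and Slc5a8 (-0.84, adjusted p = 0.128) were not called. Both were called when only the 4 normal arrays of these genotypes were fitted (adjusted p = 0.0246 and 0.0129), and Slc9a3 also without either array of Notch-inactivated normal tissue (adjusted p = 0.0260 for each). Slc4a4 was at -0.00 (SE 0.20), and Aqp4 and Kcnq1 were at -0.31 and 0.30. Colon markers summed to 25150 to 25407 in Notch-activated and 38424 to 38879 in wild type normal tissue, with 1 of 9 called lower. Epithelial markers summed to 26335 to 27438 and 21482 to 22162, with 2 of 6 called higher, and myeloid markers to 570 to 680 and 502 to 636, with 2 called higher. What part they had in these differences was not tested.

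The difference between tissues in this genotype effect was tested directly, as the tumour minus normal difference in Notch-activated mice minus that in wild type mice. It was called positive for 5 genes and negative for 1 of 7, beside 6.57% and 5.49% of features (12.1% in all). The values were 3.43 for Slc5a8 (SE 0.41, limma adjusted p = 0.00117), 2.50 for Slc9a2 (SE 0.29, adjusted p = 9.17e-04), 1.86 for Slc4a4 (SE 0.28, adjusted p = 0.00314) and -3.62 for Slc9a3 (SE 0.70, adjusted p = 0.00956). Aqp4 (2.76, SE 0.73, adjusted p = 0.0377) and Car1 (2.04, SE 0.57, adjusted p = 0.0454) lay nearer the threshold. Among 12 fits with 1 array left out, Aqp4 lost its call in 6 (adjusted p 0.0808 to 0.123), with values from 2.09 without array 1 to 3.43 without array 2 of the Notch-activated tumours, and Car1 in 8 (adjusted p 0.0511 to 0.151). For Car1 the value rests on the normal tissues, since its tumours overlapped in signal. Kcnq1 was at 0.12 (adjusted p = 0.882). This contrast shares arrays with the comparisons above and is no separate evidence for them.

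**Figure D3:**
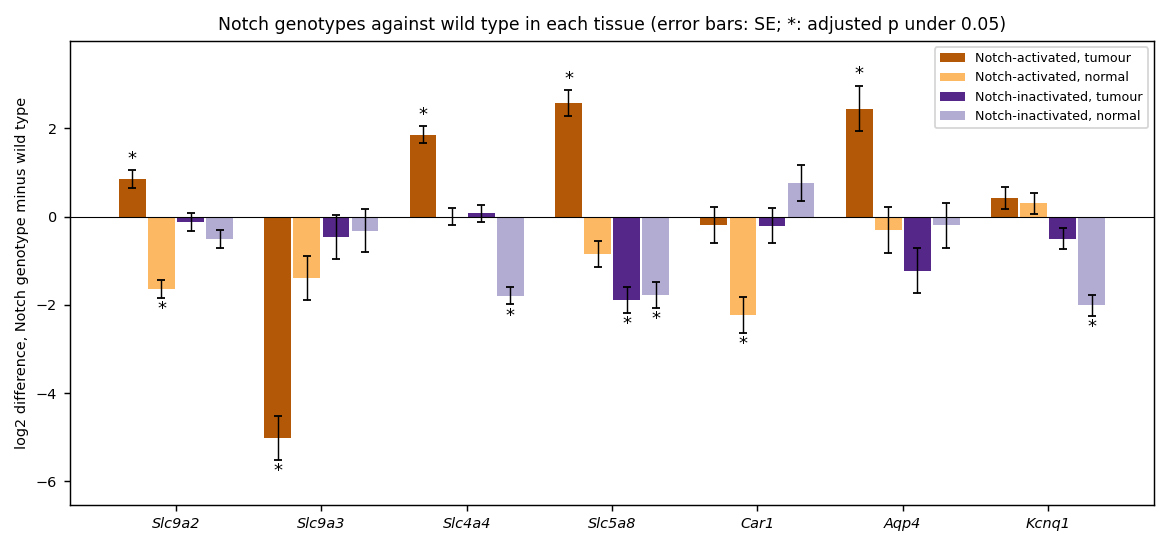
Log2 difference from wild type mice (vertical axis) of each gene in Notch-activated tumours and normal tissue and in Notch-inactivated tumours and normal tissue (bars), with SE as error bars and a star where the limma adjusted p was under 0.05. Slc9a3 stood at -5.02 in Notch-activated tumours, where Slc4a4, Slc5a8, Aqp4 and Slc9a2 were above 0.

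The third comparison sets Notch-inactivated against wild type mice. In normal tissue Kcnq1 fell 4.03-fold, Slc4a4 3.46-fold and Slc5a8 3.40-fold, and 0 genes rose. These 3 of 7 genes stand beside 4.18% of features called, 2.17% higher and 2.01% lower. In tumours 1 gene, Slc5a8, fell 3.68-fold and 0 rose, beside 0.197% of features called, 0.105% higher and 0.0918% lower.

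The normal tissue log2 differences, Notch-inactivated minus wild type, were -2.01 for Kcnq1 (SE 0.25, limma adjusted p = 0.00245), -1.79 for Slc4a4 (SE 0.20, adjusted p = 0.00156) and -1.77 for Slc5a8 (SE 0.29, adjusted p = 0.0105). Without array 2 of wild type (-1.69, adjusted p = 0.0717) or array 2 of Notch-inactivated normal tissue (-1.39, adjusted p = 0.0614) Slc5a8 was not called, while Kcnq1 and Slc4a4 were called in all 12 fits with 1 array left out. Car1 (0.77, adjusted p = 0.370), Slc9a2 (-0.51, adjusted p = 0.220), Slc9a3 (-0.31) and Aqp4 (-0.20) were not called. Colon markers summed to 22922 to 27134 in Notch-inactivated normal tissue and 38424 to 38879 in wild type normal tissue, with 3 of 9 called lower, and small intestinal markers to 2160 to 5971 and 576 to 578. Whether these markers account for any part of the differences was not tested.

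In tumours Slc5a8 fell by 1.88 (SE 0.29, limma adjusted p = 0.0448). This call was lost when only the 4 tumour arrays compared were fitted (adjusted p = 0.308) and in 7 of 12 fits with 1 array left out (adjusted p 0.0783 to 0.227). No other of the 7 genes was called in tumours by limma, with values from -1.22 for Aqp4 to 0.08 for Slc4a4, although Aqp4 had an unadjusted p of 0.0413. Over all features, 0.708% were called for the tissue difference in the effect of Notch inactivation, 0.267% higher and 0.441% lower. Of the 7 genes, 1 was called, Slc4a4, with a positive value (1.87, SE 0.28, limma adjusted p = 0.0217). That call ended without any 1 array of wild type normal tissue, wild type tumours or Notch-inactivated tumours (adjusted p 0.0527 to 0.0765), and the Slc4a4 tumour signals on which it rests lay barely above background. Kcnq1 was next, at 1.51 (SE 0.35, adjusted p = 0.106).

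Other genes of salt, water and fatty acid handling were read from 5 lists of 103 genes, of which 32 were on the array by name and 24 were kept. The names of Hsd11b2, Atp1b1, Kcnk5, Clca4a, Clca3b, Car3 and Aqp9 are less firm, since their numbers follow 2 leading zeros. In wild type tumours against normal tissue 3 of the 24 rose and 12 fell, in Notch-inactivated mice 1 and 16, and in Notch-activated mice 2 and 6, beside 49.4%, 50.6% and 25% of all features called in either direction. The medians were -0.61, -0.86 and -0.09, against -0.03, -0.01 and -0.02 over all features. Between Notch-activated and wild type tumours 11 rose and 2 fell, beside 21.2% of features. In normal tissue of those genotypes 2 rose and 5 fell, beside 8.04%. Notch-inactivated against wild type mice had 2 higher and 2 lower in normal tissue, beside 4.18%, and 0 and 0 in tumours, beside 0.197%.

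Among 10 kept sodium, proton and bicarbonate genes, Hsd11b2, the enzyme that keeps cortisol-like hormones off the mineralocorticoid receptor, fell in tumours of all 3 genotypes, with differences of -1.01 in Notch-activated, -2.34 in Notch-inactivated and -3.38 (SE 0.24, limma adjusted p = 4.48e-06) in wild type mice. The scaffold Slc9a3r1 (NHERF1), which binds Slc9a3 at the apical membrane, also fell in all 3, at -0.74 in Notch-activated, -1.60 in Notch-inactivated and -1.89 (SE 0.11) in wild type tumours, while Slc9a3 itself was called lower in Notch-activated tumours alone of the 3. Sgk1, a kinase that raises sodium channel activity, fell by 1.46 in wild type tumours, and it rose by 1.78 (SE 0.18, adjusted p = 1.25e-04) in Notch-activated against wild type tumours. Atp1b1, a subunit of the sodium pump, fell too, at -0.65, -0.85 and -1.22 in Notch-activated, Notch-inactivated and wild type tumours. The bicarbonate cotransporter Slc4a7 fell in Notch-inactivated (-1.44) and wild type tumours (-1.20) and rose by 1.06 in Notch-activated against wild type tumours. Fxyd3, a regulator of the sodium pump, rose by 1.52 (SE 0.23) in Notch-activated tumours against their normal tissue, and its difference from wild type tumours was -0.74 (adjusted p = 0.0421). In Notch-activated against wild type normal tissue Hsd11b2 (-1.60), Fxyd3 (-1.30), Slc4a2 (-0.72) and Slc9a3r1 (-0.57) were called lower and Sgk1 (0.74) higher. In the tumours of these genotypes Hsd11b2 (0.78) and Slc9a3r1 (0.58) were called higher.

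Of 6 kept chloride and potassium genes, the potassium channel Kcnk5 fell in Notch-activated (-0.56), Notch-inactivated (-1.05) and wild type tumours (-1.89, SE 0.14 each) and rose by 0.89 in Notch-activated against wild type tumours. Kcnk5 read 5.68 on each wild type tumour array, barely above the background limit. Clca4a, a secreted protein of the family once called calcium-activated chloride channels, fell by 3.79 (SE 0.25, limma adjusted p = 3.55e-06) in Notch-inactivated tumours, beside -1.20 in wild type tumours. It was higher in Notch-activated than in wild type mice, by 1.66 in tumours and 1.06 in normal tissue. Notch-inactivated normal tissue exceeded wild type normal tissue in Clca4a by 1.18. The difference between tissues in the effect of Notch inactivation was -2.59 for Clca4a. In normal tissue of Notch-inactivated against wild type mice Kcnk5 differed by -0.82 and Kcnma1 by 0.77, both called. In wild type normal tissue Kcnma1 read 6.13 and 5.66, the latter value below the background limit. Clca3b (-1.99) and Kcnma1, a calcium-activated potassium channel (-0.89), fell in Notch-inactivated tumours. Clca genes are close copies of each other, so their probes may read more than 1 of them. Neither of the 2 kept carbonic anhydrases, Car3 and Car5b, was called in wild type tumours, and both fell in Notch-inactivated tumours, at -0.73 and -0.86, where normal array 2 (6.81 for each) was brighter than array 1 (6.06 and 6.10). The 2 kept aquaporins, Aqp6 and Aqp9, lay near the background limit.

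Butyrate and acetate metabolism was represented by 4 kept genes. Acss2, which activates acetate in the cytosol and nucleus, fell in Notch-activated (-0.68), Notch-inactivated (-1.81) and wild type tumours (-2.55, SE 0.13, limma adjusted p = 7.35e-07). In Notch-activated against wild type tumours Acss2 rose by 2.11 (adjusted p = 1.16e-05), beside 2.58 for Slc5a8. The mitochondrial enzyme Acss1 fell in Notch-inactivated (-0.97) and wild type tumours (-1.71), and Hadh, an enzyme of fatty acid oxidation, fell in Notch-activated (-0.39), Notch-inactivated (-0.26) and wild type tumours (-0.62). Hadh lay at the background limit in Notch-inactivated (5.64 and 5.56) and wild type tumours (5.57 and 5.62). Acss1 (0.74) and Hadh (0.31) were called higher in Notch-activated than in wild type tumours, and in normal tissue Acss1 (-0.63) was called lower. In normal tissue Acss2 fell by 0.80 in Notch-inactivated mice (adjusted p = 0.00988), where Slc5a8 fell as well. The test of the difference between tissues set Notch-activated against wild type mice. It called 8 of the 24 genes with a positive value and 0 with a negative one, beside 6.57% and 5.49% of all features. These were Hsd11b2 (2.38, SE 0.34), Acss2 (1.86, SE 0.19), Acss1 (1.37), Kcnk5 (1.33), Slc4a7 (1.28), Slc9a3r1 (1.14), Sgk1 (1.04) and Atp1b1 (0.56).

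**Figure D4:**
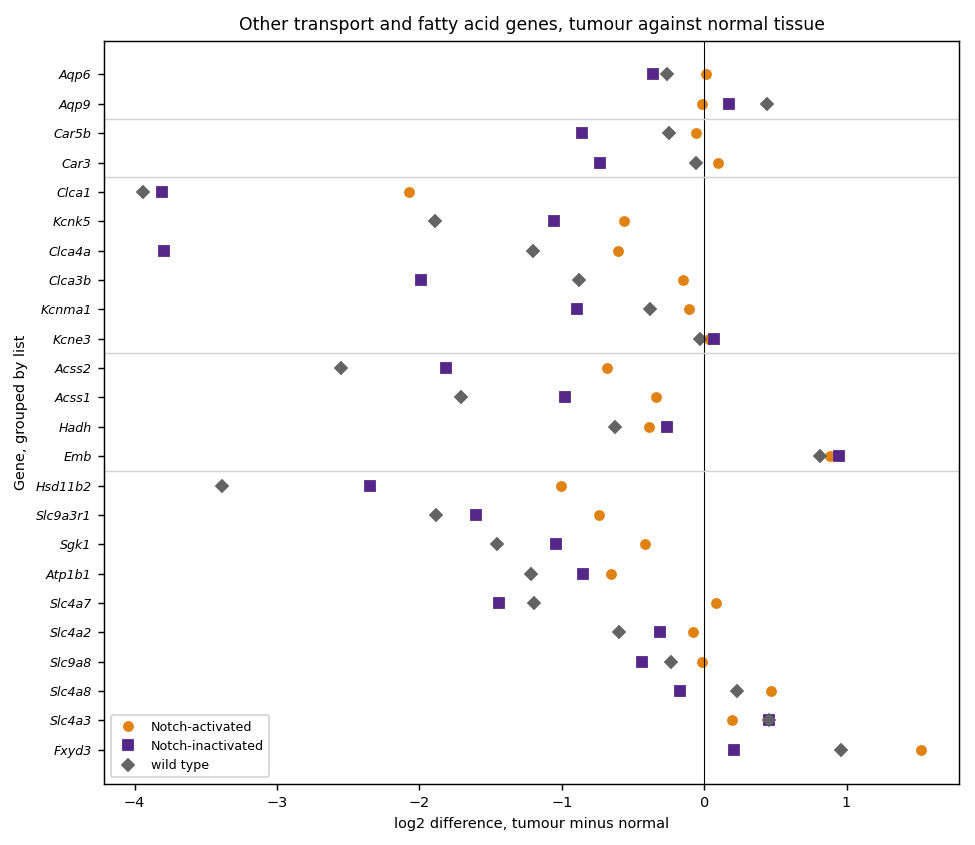
Log2 difference, tumour minus normal tissue (horizontal axis), of the 24 kept genes of the 5 lists (rows, with lines between lists) in Notch-activated (circles), Notch-inactivated (squares) and wild type mice (diamonds). Hsd11b2 lay at -1.01, -2.34 and -3.38, and Fxyd3 at 1.52 in Notch-activated mice. Fxyd3 was also higher in wild type tumours than in wild type normal tissue.

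For each of the 7 genes, the 3 other named genes with the highest Pearson r of log2 signal over the 12 arrays were listed as a description. These arrays share 6 groups and 1 normalization, so any gene that differs between the same groups scores high. Slc9a2 was most like Slc15a1 (r = 0.992), Slc9a3r1 (0.988) and Radx (0.986). Slc5a8 was most like Ugt1a6b and Selenbp1 (0.972 each) and Eif4ebp3 (0.966), and Aqp4 was most like Ceacam20 (0.982), Cdhr5 (0.975) and Pigr (0.972). Slc4a4 followed Pde7a (0.967), Hcst (0.964) and Kif21a (0.961), and Car1 followed Sec16a (0.967), Gcnt3 (0.959) and Map3k5 (0.953). Slc9a3 and Kcnq1 had looser partners: Ank3 (0.939), Nudt22 (0.932) and Nfix (0.906) for Slc9a3, and Dab2ip (0.870), Osbpl1a (0.859) and Lrch1 (0.857) for Kcnq1.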

How the data were processed

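Biotin-labelled cRNA from total RNA was hybridised to Illumina arrays, per the labels' protocols. The deposited table holds 1 value per probe and array, which the authors had normalized. Its columns had the same sorted values to within 5.43e-04, as quantile normalization gives, and a range that reads as log2, so the deposited log2 values were used as they stand. The log base is an inference, and the background correction is not given in the sources used here. A second table with 24 per-sample columns was not used, because its columns could not be tied to samples. The files name no genome build.

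Probes carry no gene names. A number after 1 or 2 leading zeros in the probe identifier was taken for an NCBI gene number and matched to RefSeq genes (GRCm38.p6). Of these numbers 81.1% and 84.8% matched a gene, against 25.0% and 26.1% after a shift. Ribosomal protein probes had a median of 13.3 after 1 zero and 6.53 after 2, so names after 2 zeros are less firm. Among the 7 genes these are the names of the bright Slc9a2 probe, Slc5a8, Aqp4 and Kcnq1. Control probes (443) were left out. A probe was kept if above the background limit on at least 2 arrays (23614 probes), and the brightest kept probe stood for a gene.

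limma 3.58.1 (R 4.3.3) was fitted to 22879 features on all 12 arrays at once, with group means as coefficients and Benjamini-Hochberg adjustment within each contrast, and features were called at an adjusted p under 0.05. The fit had 6 residual and 3.76 prior degrees of freedom and was tested on simulated data. The number of arrays limits the precision. The 7 genes, the 5 lists and the markers were chosen with earlier results of these data known. Besides the 7 genes, called genes of the lists could be named, up to 5 per list and comparison in order of size, and most are. Alternatives were cyclic loess, other filters, the mean over probes, an intensity trend, only the groups compared, the replicate block, leaving out each array and, added after seeing the data, each probe as its own feature. Replicate numbers did not pair the arrays: the deviations of 15 pairs of groups correlated between -0.38 and 0.34.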

Additional observations from a re-analysis of the deposited data

Results flagged for a closer look

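Differences between genotypes in the tumour change were called for 6 genes in Notch-activated against wild type mice: Slc5a8 3.43, Aqp4 2.76, Slc9a2 2.50, Car1 2.04, Slc4a4 1.86 and Slc9a3 -3.62 on the log2 scale (limma, adjusted p = 0.00117, 0.0377, 9.17e-04, 0.0454, 0.00314 and 0.00956). For Slc9a3 the tumour change was -2.56 in Notch-activated and 1.06 in wild type mice, the only one of the 6 with a negative value. In Notch-inactivated against wild type mice Slc4a4 had a value of 1.87 (adjusted p = 0.0217), with tumour changes of -0.68 and -2.55.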

How the results depend on the processing

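Apart from leaving out 1 array, no alternative that kept 1 value per gene turned the direction of any of the 63 differences of the 7 genes. With each probe as its own feature, the dimmer Slc9a2 probe differed by 0.08 in Notch-inactivated against wild type tumours. The brighter probe had -0.12 there. Neither was called, and the dimmer probe was at background in both groups. With only the groups compared, 4 genes were called in Notch-activated against wild type normal tissue in place of 2, 0 in place of 1 in Notch-inactivated against wild type tumours, and the features called in Notch-inactivated against wild type mice numbered 241 in normal tissue, 0 in tumours and 65 for the difference between tissues, in place of 956, 45 and 162. The Car1 difference between tissues in Notch-activated against wild type mice was not called either (adjusted p = 0.0632). The filter on dim probes mattered for 1 call: with no filter the Car1 difference between tissues was not called (adjusted p = 0.0595).

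Replicate numbers share no known source. With the replicate block the features called in wild type tumours against normal tissue were 11145, in place of 11296, and 0 genes were called in Notch-inactivated against wild type tumours, where Slc5a8 had an adjusted p of 0.0810. No other call of the 7 genes changed with the block.

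Leaving out 1 array leaves a lone array in its group, assumed to vary like the others. Tumour against normal tissue then gave 5 to 6 genes in wild type, 5 to 6 in Notch-inactivated and 1 to 3 in Notch-activated mice, out of 8510 to 11619, 8572 to 11565 and 2658 to 6075 features called. Notch-activated against wild type mice gave 1 to 3 genes and 989 to 2023 features in normal tissue, 3 to 5 and 2950 to 5040 in tumours, and 4 to 6 and 1594 to 2899 for the difference between tissues. Notch-inactivated against wild type mice gave 2 to 3 genes and 366 to 917 features, 0 to 1 and 18 to 49, and 0 to 1 and 57 to 169. The values that changed sign were all uncalled. In Notch-activated tumours against normal tissue these were Kcnq1 (-0.52 to 0.13) and Aqp4 (-1.14 to 0.20). In Notch-activated against wild type mice they were Slc4a4 in normal tissue (-0.18 to 0.18), Car1 in tumours (-0.76 to 0.38) and Kcnq1 for the difference between tissues (-0.20 to 0.45). In Notch-inactivated against wild type mice they were Slc9a3 (-1.19 to 0.56) and Aqp4 (-0.60 to 0.20) in normal tissue, Slc9a2 (-0.31 to 0.065) and Car1 (-0.77 to 0.37) in tumours, and Slc9a3 (-1.02 to 0.74) and Slc5a8 (-0.51 to 0.28) for the difference between tissues. The cause was not tested. Signals near the background limit, as for Slc4a4 in tumours, limit what these arrays resolve.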
